A study of Saccharomyces cerevisiae with 2 samples.

Results

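Transcripts of 10 Hsp70 family genes of the budding yeast Saccharomyces cerevisiae were compared between 2 libraries of messenger RNA. The genes were the cytosolic SSA1, SSA2, SSA3 and SSA4, the ribosome-associated SSB1, SSB2 and SSZ1, the Hsp110-type SSE1 and SSE2, and the mitochondrial SSC1. They were taken by name, and all 10 were found among 6603 listed open reading frames (ORFs). The tra1-L3733A library came from strain CY3003, which carries that allele of TRA1, and the TRA1 library came from strain CY2706, which is wild type for it. TRA1 encodes a very large protein found in 2 histone acetyltransferase complexes, SAGA and NuA4. Both strains grew at 30 °C in rich YP medium with 2% glucose to an A600 of 2.0. The sources used here do not give the other alleles of the strains or say whether more than 1 clone or culture was used. There was 1 library per strain, so every difference below compares these libraries and has no replicate check.

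Hsp70 proteins bind short exposed stretches of unfolded protein and release them in a cycle driven by ATP. J-domain proteins start the ATP hydrolysis that closes the chaperone on its client, and nucleotide exchange factors reopen it. In yeast the Ssa proteins serve the cytosol and nucleus, the Ssb proteins meet new chains at the ribosome, Ssz1 pairs there with the J-domain protein Zuo1, the Sse proteins act as exchange factors, and Ssc1 pulls proteins into the mitochondrial matrix. SSA3, SSA4 and SSE2 are best known as forms induced by heat and other stress, while SSA2, SSB1 and SSB2 are abundant in growing cells.

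Near-identical copies limit what 35-nt reads can tell about 4 of the 10 genes. In the R64 reference genome the coding sequences of SSA1 and SSA2 were 96.4% identical, with 70 differing positions in the alignment, and those of SSB1 and SSB2 were 97.4% identical, with 48. Of all 35-base windows in the coding sequence, 62.1% of those of SSA1, 62.4% of those of SSA2 and 54.4% of those of SSB1 and of SSB2 occurred again elsewhere in the genome, and each of these was present in the other copy. For SSA3, SSA4, SSC1, SSE1, SSE2 and SSZ1 the number of such windows was 0. The sources used here do not say how reads that match both copies were assigned, so the separate values of these 4 genes are uncertain and their sums are given too. The lines below show, for each pair, the 60-base stretch with the most differences, at which copies can be told apart, with differing bases in capitals. The run that follows each is the first 150 bases of the longest identical stretch, within which no 35-nt read could be assigned to 1 copy. Positions count from 1 at the first base of the start codon.
SSA1, bases 1661 to 1720: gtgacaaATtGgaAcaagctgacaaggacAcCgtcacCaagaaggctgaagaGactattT
SSA2, bases 1661 to 1720: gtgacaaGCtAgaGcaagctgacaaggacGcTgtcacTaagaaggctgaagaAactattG
SSA1 and SSA2, from base 403 of an identical run of 383 bases: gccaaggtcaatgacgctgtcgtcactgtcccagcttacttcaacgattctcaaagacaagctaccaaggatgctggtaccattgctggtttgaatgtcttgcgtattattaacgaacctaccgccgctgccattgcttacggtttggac
SSB1, bases 1248 to 1307: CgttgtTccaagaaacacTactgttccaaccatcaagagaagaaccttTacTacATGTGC
SSB2, bases 1248 to 1307: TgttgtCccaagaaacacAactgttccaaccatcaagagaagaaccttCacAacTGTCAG
SSB1 and SSB2, from base 466 of an identical run of 563 bases: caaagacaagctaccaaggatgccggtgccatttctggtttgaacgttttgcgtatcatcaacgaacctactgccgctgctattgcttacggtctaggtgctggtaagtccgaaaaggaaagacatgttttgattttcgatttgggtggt

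The stretches that can be told apart differ at 9 positions for SSA1 and SSA2 and at 11 for SSB1 and SSB2. Other members were farther apart, with 76.6% identity between SSA3 and SSA4, 74.1% between SSA1 and SSA4, 72.0% between SSE1 and SSE2, and 67.0% between SSA1 and SSB1. In R64 all 10 genes have 1 coding exon. Their lengths from the deposited start to the deposited end, with both bases counted, equal these coding lengths.

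The tra1-L3733A library held 9970836 counts and the TRA1 library 11564964. Scaling used edgeR's TMM factors (trimmed mean of M-values), and ratios below are tra1-L3733A over TRA1, each with a 95% exact counting interval (Clopper-Pearson). To be called higher or lower an ORF needed at least 20 reads in both libraries together, a ratio of 1.5 or more either way and an interval without 1. The intervals cover counting error only, not the spread between cultures. TRA1 itself was called lower, with 5102 reads in the tra1-L3733A library and 12035 in the TRA1 library, a ratio of 0.526 (0.509 to 0.544).

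Each Hsp70 transcript differed by less than 1.5-fold between the libraries. None of the 10 genes was called: 0 were higher, where 2.80% of 6248 tested ORFs were, and 0 were lower, where 5.46% were. The ratios ran from 0.865 for SSE2 to 1.30 for SSA3. A count of 0 among 10 genes is near these background shares. The reads of all 10 together made 1.26% of the counts (1.254 to 1.268%, exact binomial) in the tra1-L3733A library and 1.36% (1.358 to 1.371%) in the TRA1 library. After TMM scaling the summed reads had a ratio of 0.989 (0.982 to 0.996), but 0.924 with scaling by total counts.

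**Figure D1:**
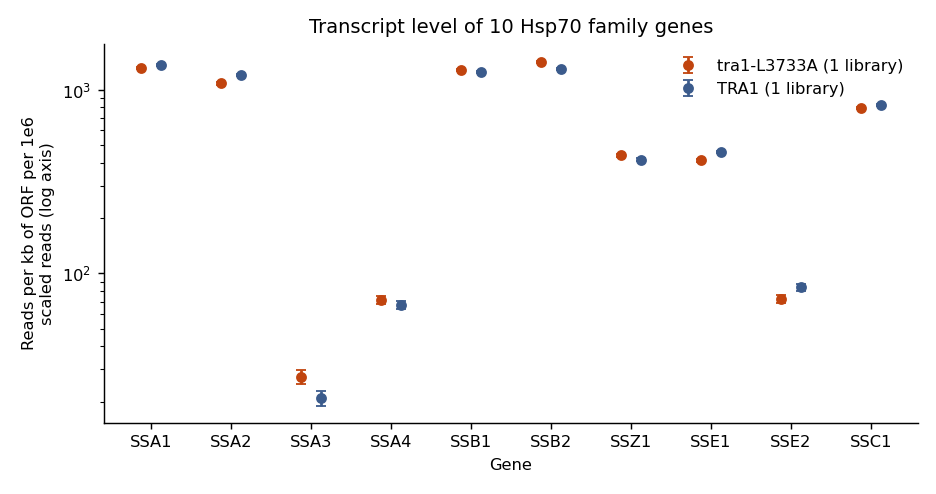
Level of each Hsp70 gene, in reads per kb of ORF per 1e6 scaled reads on a log axis, in the tra1-L3733A library (left point) and the TRA1 library (right point), with 95% exact Poisson intervals. In both libraries SSA1, SSA2, SSB1 and SSB2 lie above 1000 and SSA3 is the lowest, at 27.1 in tra1-L3733A and 20.9 in TRA1.

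Levels between genes were compared as reads per kb of ORF per 1e6 scaled reads, with exact Poisson intervals on the reads. In the tra1-L3733A library the order was SSB2 at 1411, SSA1 at 1319, SSB1 at 1279, SSA2 at 1081, SSC1 at 796, SSZ1 at 438, SSE1 at 412, SSE2 at 72.8, SSA4 at 71.5 and SSA3 at 27.1. In the TRA1 library it was SSA1 at 1358, SSB2 at 1295, SSB1 at 1241, SSA2 at 1202, SSC1 at 826, SSE1 at 458, SSZ1 at 415, SSE2 at 84.1, SSA4 at 67.2 and SSA3 at 20.9. The libraries thus gave the same order but for 2 swaps, SSB2 with its neighbour SSA1 and SSZ1 with SSE1. Of neighbours in either order, SSE2 and SSA4 in the tra1-L3733A library alone had overlapping counting intervals. The level of the stress-induced SSA3 was 52.0-fold below the top of the family in the tra1-L3733A library and 65.1-fold below it in the TRA1 library. Among all listed ORFs SSB2 held place 92 by level per kb in the tra1-L3733A library and place 113 in the TRA1 library, so the abundant members were among the most abundant transcripts of these cultures.

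SSA1 and SSA2 encode the major cytosolic Hsp70s. SSA1 (YAL005C, chromosome I, 139505 to 141433, coordinates of the deposited files) had 24528 reads in the tra1-L3733A library and 31349 in the TRA1 library, a ratio of 0.971 (0.955 to 0.988). SSA2 (YLL024C, XII, 95565 to 97484) had 20000 reads in the tra1-L3733A library and 27611 in the TRA1 library, a ratio of 0.899 (0.883 to 0.916). SSA2 thus lay farther below 1 than its copy, and the intervals of the copies did not overlap. As a pair they had 44528 reads in the tra1-L3733A library and 58960 in the TRA1 library, a ratio of 0.938 (0.926 to 0.949). SSA1 made up 55.1% of the pair's reads (54.6 to 55.5%, exact binomial) in the tra1-L3733A library and 53.2% (52.8 to 53.6%) in the TRA1 library. This share needs no scaling of the libraries, and it was higher in tra1-L3733A among fr reads (54.8% against 52.5% in TRA1) and among rr reads (55.3% against 53.8% in TRA1). The sources used here do not define the columns fr and rr, which were taken as read directions. The ORF YAL004W lies wholly inside the SSA1 span, and its 7210 reads in the tra1-L3733A library and 8946 in the TRA1 library, a ratio of 1.0005 (0.970 to 1.03), cannot be told apart from SSA1 reads.

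SSA3 and SSA4 encode the stress-induced Ssa proteins, and both were read at far lower depth. SSA3 (YBL075C, II, 84497 to 86446) had 510 reads in the tra1-L3733A library and 487 in the TRA1 library, or 52.9 counts per 1e6 of the scaled size (CPM) in tra1-L3733A and 40.7 CPM in TRA1. Its ratio of 1.30 (1.15 to 1.47) was the largest of the 10 and ranked 584 of 6248 tested ORFs from the top. It came from 265 fr and 245 rr reads in the tra1-L3733A library, against 237 fr and 250 rr reads in the TRA1 library, and either direction alone gave a ratio above 1, at 1.39 (1.16 to 1.66) for fr and 1.22 (1.02 to 1.46) for rr. With a looser threshold, a ratio of 5 to 4 either way, SSA3 was the 1 member called, as higher, where 10.7% of tested ORFs were called higher and 14.4% lower. SSA4 (YER103W, V, 364585 to 366513) had 1330 reads in the tra1-L3733A library and 1552 in the TRA1 library, and its ratio of 1.06 (0.988 to 1.15) was the only one of the 10 whose interval held 1. SSA3 made 27.7% (25.68 to 29.82%) of the reads of both genes in the tra1-L3733A library and 23.9% (22.05 to 25.80%) in the TRA1 library, and these intervals overlapped.

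SSB1 and SSB2 encode the Hsp70s that bind new chains at the ribosome. SSB1 (YDL229W, IV, 44066 to 45907) had 22698 reads in the tra1-L3733A library and 27354 in the TRA1 library, a ratio of 1.03 (1.01 to 1.05). SSB2 (YNL209W, XIV, 252060 to 253901) had 25042 reads in the tra1-L3733A library and 28535 in the TRA1 library, a ratio of 1.09 (1.07 to 1.11). The intervals of these copies did not overlap either. SSB1 made 47.5% (47.1 to 48.0%) of the pair's reads in the tra1-L3733A library and 48.9% (48.5 to 49.4%) in the TRA1 library. For both pairs of copies such intervals take each read as assigned to 1 copy, which the sources used here do not state. As a pair SSB1 and SSB2 had a ratio of 1.06 (1.05 to 1.07), and 0.991 with scaling by total counts. Reads of SSB1 may also count for YDL228C, an ORF that overlaps it by 630 bases and had a ratio of 1.02 (0.986 to 1.05).

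SSZ1 (YHR064C, VIII, 225527 to 227143), whose product forms the ribosome-associated complex with Zuo1, had 6828 reads in the tra1-L3733A library and 8035 in the TRA1 library, a ratio of 1.05 (1.02 to 1.09). Reads in the 253 bases it shares with YHR063W-A may count for either ORF. ZUO1, the partner of SSZ1 and named with its values already seen, had 7167 reads in the tra1-L3733A library and 7351 in the TRA1 library, a ratio of 1.21 (1.171 to 1.2505). SSZ1 therefore made 48.8% (48.0 to 49.6%) of the reads of both genes in the tra1-L3733A library and 52.2% (51.4 to 53.0%) in the TRA1 library.

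**Figure D2:**
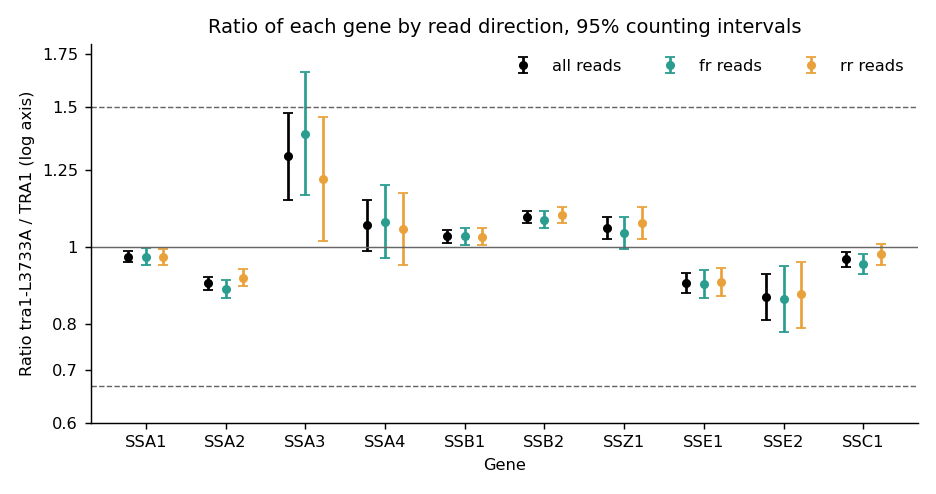
Ratio of tra1-L3733A to TRA1 for each Hsp70 gene on a log axis, from all reads, fr reads and rr reads, with 95% exact counting intervals. Dashed lines mark 1.5-fold either way and every point lies between them, from 0.865 for SSE2 to 1.30 for SSA3 on all reads.

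SSE1 and SSE2 encode large relatives of Hsp70 that act as its nucleotide exchange factors. SSE1 (YPL106C, XVI, 350191 to 352272) had 8268 reads in the tra1-L3733A library and 11398 in the TRA1 library, a ratio of 0.900 (0.875 to 0.926). SSE2 (YBR169C, II, 573910 to 575991) had 1460 reads in the tra1-L3733A library and 2096 in the TRA1 library, and its ratio of 0.865 (0.808 to 0.925) was the lowest of the family. The shares of the common and the stress-induced form had overlapping intervals, with SSE1 at 85.0% (84.3 to 85.7%) of their reads in the tra1-L3733A library and 84.5% (83.8 to 85.1%) in the TRA1 library. SSC1 (YJR045C, X, 519630 to 521594), the essential mitochondrial Hsp70 of the import motor, had 15076 reads in the tra1-L3733A library and 19410 in the TRA1 library, a ratio of 0.964 (0.944 to 0.985).

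By counting error alone, the intervals of SSA3, SSB1, SSB2 and SSZ1 lay above 1, which is 4 of 10 where 24.2% of tested ORFs did so, and those of SSA1, SSA2, SSC1, SSE1 and SSE2 lay below 1, which is 5 of 10 where 25.5% did so. Most members are deeply read, and intervals narrow with depth. Of the 2986 ORFs with at least 1000 reads in both libraries together, 1007 had intervals above 1 and 957 below 1. The shares among the 10 members are therefore not a result about the family. With scaling by total counts or by lane reads SSA4, SSB1 and SSZ1 crossed to below 1, at 0.994, 0.962 and 0.986 with total counts, which left SSA3 and SSB2 above 1. The order of the ratios does not depend on the scaling. For each of the 10 genes the interval from fr reads overlapped that from rr reads.

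A comparison within the family is free of the scaling of the libraries. SSB1 and SSB2 together made 51.7% (51.4 to 52.1%) of the reads of the 4 abundant genes SSA1, SSA2, SSB1 and SSB2 in the tra1-L3733A library and 48.7% (48.4 to 49.0%) in the TRA1 library. The share was higher in tra1-L3733A among fr reads (52.4% against 49.2% in TRA1) and among rr reads (51.1% against 48.1% in TRA1). The ribosome-associated pair thus had more reads than the cytosolic pair in the tra1-L3733A library and fewer in the TRA1 library. Its share was 3.08 percentage points higher in tra1-L3733A. With TMM scaling the log2 ratio of summed reads was 0.085 for SSB1 and SSB2 and -0.093 for SSA1 and SSA2. Over all tested ORFs the SD of the log2 ratio was 0.35, so a shift of this size is not shown to be particular to these pairs. The longest identical stretch between aligned SSA1 and SSB1 was 40 bases, against 383 between SSA1 and SSA2 and 563 between SSB1 and SSB2.

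**Figure D3:**
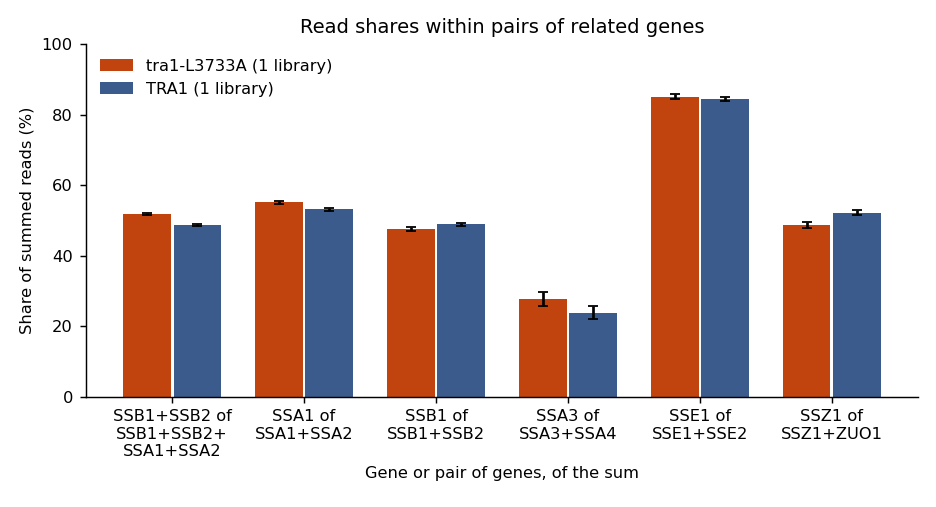
Share of summed reads, in percent, held by a gene or pair in the tra1-L3733A library (left bar) and the TRA1 library (right bar), with 95% exact binomial intervals. SSB1 and SSB2 hold 51.7% in tra1-L3733A and 48.7% in TRA1 of the reads of the abundant SSA and SSB genes, and SSE1 holds 85.0% in tra1-L3733A and 84.5% in TRA1 of the SSE reads.

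Set among all tested ORFs, the family lay near the middle. The median log2 ratio of its 10 genes was 0.00035 and that of all 6248 tested ORFs was -0.0025. The SD of the log2 ratio was 0.17 over the 10 genes, 0.35 over all tested ORFs and 0.30 over the 2986 ORFs with at least 1000 reads in both libraries together. SSA1 and SSA2 may share reads, as may SSB1 and SSB2, so the 10 ratios may not be fully separate values. The members other than SSA3 lay between the quartiles of all tested ORFs, which were ratios of 0.859 and 1.14, and SSA3 lay above the upper one.

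**Figure D4:**
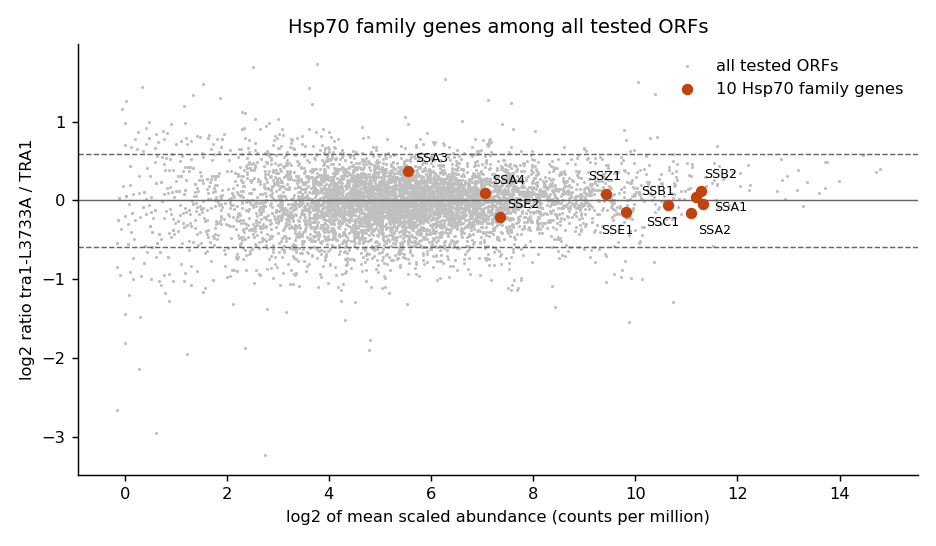
Log2 ratio of tra1-L3733A to TRA1 against the log2 of the mean abundance in CPM, for all 6248 tested ORFs (grey) and the 10 Hsp70 genes (red). Dashed lines mark 1.5-fold, and all 10 genes lie between them, with SSA3 the highest at a log2 ratio of 0.38.

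The promoters of some Hsp70 genes, but not of all, are known to hold heat shock elements, bound by Hsf1, or stress response elements, bound by Msn2 and Msn4. Upstream sequence was read from the RefSeq copy of R64 by gene identifier, as the 300 bases before each start codon, and searched on both strands for TTCNNGAA, a core of the heat shock element, for a longer form in which NNTTC follows this core, and for AGGGG, the stress response element. The longer motif contains the core, so their counts overlap. The core was in 6 of the 10 windows and in 13.1% of 6001 windows of all nuclear coding genes, the longer motif in 3 and in 0.867%, and AGGGG in 4 and in 22.2%. The 4 SSA windows are shown because they belong to the subfamily with the widest range of ratios, 5′ to 3′ on the strand of the gene, with every motif match in capitals.
SSA1 promoter, chrI:141432-141731, minus strand: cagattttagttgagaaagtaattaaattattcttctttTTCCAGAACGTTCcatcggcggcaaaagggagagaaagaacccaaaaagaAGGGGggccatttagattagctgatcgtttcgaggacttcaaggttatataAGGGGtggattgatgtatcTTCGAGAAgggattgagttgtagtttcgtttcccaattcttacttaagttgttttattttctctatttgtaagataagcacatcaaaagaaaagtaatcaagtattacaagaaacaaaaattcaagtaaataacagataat
SSA2 promoter, chrXII:97486-97785, minus strand: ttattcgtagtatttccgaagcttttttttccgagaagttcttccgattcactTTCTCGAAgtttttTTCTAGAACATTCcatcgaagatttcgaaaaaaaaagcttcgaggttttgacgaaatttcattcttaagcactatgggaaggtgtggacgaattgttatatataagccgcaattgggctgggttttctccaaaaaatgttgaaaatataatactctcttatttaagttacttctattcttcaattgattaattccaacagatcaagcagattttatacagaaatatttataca
SSA3 promoter, chrII:86449-86748, minus strand: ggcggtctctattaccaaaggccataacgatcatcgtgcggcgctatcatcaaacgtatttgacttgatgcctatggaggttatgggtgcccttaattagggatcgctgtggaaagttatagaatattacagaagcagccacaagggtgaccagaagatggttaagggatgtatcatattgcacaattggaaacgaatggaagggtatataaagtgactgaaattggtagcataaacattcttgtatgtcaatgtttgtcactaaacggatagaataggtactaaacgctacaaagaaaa
SSA4 promoter, chrV:364289-364588, plus strand: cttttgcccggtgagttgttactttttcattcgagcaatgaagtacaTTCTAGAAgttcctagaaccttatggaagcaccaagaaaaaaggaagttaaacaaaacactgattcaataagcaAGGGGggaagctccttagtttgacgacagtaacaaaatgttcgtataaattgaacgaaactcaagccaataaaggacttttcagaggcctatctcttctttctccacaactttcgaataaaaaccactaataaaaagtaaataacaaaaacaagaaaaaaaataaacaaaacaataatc

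SSA1 and SSA2, near-identical in their coding sequence, each held 2 cores and 1 longer match, and SSA1 also held 2 AGGGG matches where SSA2 held 0. In SSA4 the core ended 246 bases and AGGGG 175 bases before the start codon. SSA3, with the highest ratio, had 0 matches to all 3 motifs in its window, which R64 shows to overlap the neighbouring gene YBL074C. SSE1 held a core and a longer match, with the core ending 179 bases before the start codon, while SSE2 held a core and an AGGGG match. SSB2 held a core that ended only 27 bases before the start codon, SSC1 held AGGGG, and SSB1 and SSZ1 held 0 matches. A match describes these letters and is not evidence of binding. The search found only these fixed patterns, so 0 matches, as in SSA3, do not show that an element is absent. With TMM scaling, of the 6 genes with a core, SSA4 and SSB2 had ratios above 1 and SSA1, SSA2, SSE1 and SSE2 below it. Of the 4 without one, SSC1 had a ratio below 1 and SSA3, SSB1 and SSZ1 above it. With scaling by total counts or by lane reads SSA4, SSB1 and SSZ1 lay below 1, so this tally depends on the scaling. The TMM interval of SSA4 held 1, and a link between motif and ratio was not tested.

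Partners of the Hsp70s were described through 7 lists of 57 genes in all. Of these, 2 were called lower, where 5.46% of all tested ORFs were, and 0 higher, where 2.80% were, so the counts are near the background. Both lower genes encode J-domain proteins with few reads. MDJ2, a J-domain protein of the mitochondrial inner membrane, had 53 reads in the tra1-L3733A library and 108 in the TRA1 library, a ratio of 0.609 (0.430 to 0.854). JJJ2 had 95 reads in the tra1-L3733A library and 180 in the TRA1 library, a ratio of 0.655 (0.505 to 0.845), a call lost on rr reads alone at 0.739. Over all tested ORFs 3094 ratios lay above 1 and 3154 below. The list of 23 J-domain genes had 7 ratios above 1 and 16 below, with a median log2 ratio of -0.09, and this difference was not tested. With scaling by total counts 4 of them were called lower, but so were 515 of all 6248 tested ORFs, against 341 with TMM.

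The other 4 Hsp70 genes had a median log2 ratio of 0.06 with 0 called. The mitochondrial SSQ1, which serves iron-sulfur cluster assembly, was at 1.33 (1.19 to 1.49), ECM10, a mitochondrial relative of SSC1, at 1.13 (0.916 to 1.40), and LHS1, of the endoplasmic reticulum, at 0.906 (0.825 to 0.993). Among 4 nucleotide exchange factor genes 0 were called and the median was -0.19, with 1 ratio above 1 and 3 below. The 3 below were MGE1, the factor of Ssc1, at 0.856 (0.782 to 0.935), SIL1, of the endoplasmic reticulum lumen, at 0.869 (0.746 to 1.01) and SNL1, anchored in its membrane, at 0.885 (0.718 to 1.09). For the partners of SSC1 in the presequence translocase, 0 of 6 genes were called, and the median was 0.13, with the channel genes TIM17 at 1.21 (1.13 to 1.30), TIM23 at 1.14 (1.06 to 1.21) and the receptor gene TIM50 at 0.890 (0.822 to 0.964). The nascent polypeptide-associated complex, which like the Ssb proteins meets new chains at the ribosome, had 0 of 3 genes called, with EGD2 at 1.04 (1.001 to 1.084), EGD1 at 0.971 (0.932 to 1.01) and BTT1 at 0.810 (0.543 to 1.20).

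Of 14 other chaperone and stress genes controlled by Hsf1, 0 were called and the median log2 ratio was -0.17, with 5 ratios above 1 and 9 below. A difference from all tested ORFs, with 3094 above and 3154 below, was not tested. The genes farthest from 1 were the coactivator gene MBF1 at 0.708 (0.651 to 0.769), which was called lower at 0.662 with the same scaling by total counts, HSP10, of the mitochondrial chaperonin, at 0.722 (0.674 to 0.774), and CPR6, a cyclophilin that binds Hsp90, at 0.772 (0.725 to 0.822). Of the 3 regulator genes 0 were called, with HSF1 at 1.07 (0.982 to 1.17), MSN2 at 1.03 (0.944 to 1.13) and MSN4 at 1.09 (1.03 to 1.16).

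**Figure D5:**
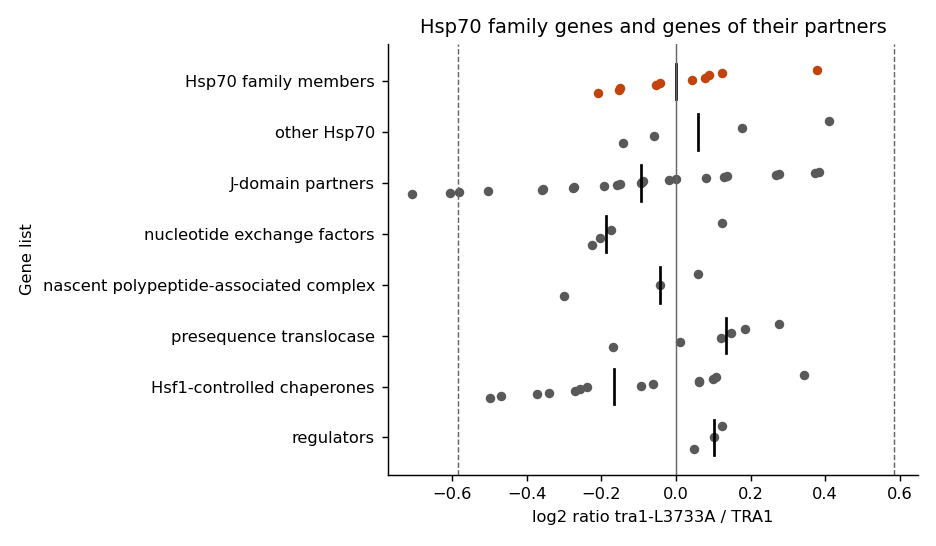
Log2 ratio of tra1-L3733A to TRA1 for the 10 Hsp70 genes (red) and for 7 lists of partner genes (grey), 1 point per gene, spread vertically within a list for legibility only. Black bars are medians and dashed lines mark 1.5-fold, and 2 J-domain genes called lower, MDJ2 and JJJ2, lie beyond the left line.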

How the data were processed

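Messenger RNA was sequenced as 35-nt reads, 11156078 for tra1-L3733A and 13014880 for TRA1 per the labels' protocols. The submitters' processing notes name Novoalign, a read aligner. The sources used here do not give its version, the genome build, the annotation, or how strand and reads with several matches were treated. The deposited tables hold raw read counts per ORF in columns fr and rr, and a coverage signal that per the file headers is a ratio and equals summed reads per base of span. Coverage was not used further. The deposited coordinates differ from those of R64, and 0 of the 10 genes have the same start and end in both. R64 sequence was therefore read by R64 coordinates after a match by identifier.

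Here fr and rr were summed. TMM factors from edgeR 4.0.16 (R 4.3.3) were 0.967 for tra1-L3733A and 1.03 for TRA1. For log2 ratios 0.5 reads were added to either count. The quasi-likelihood test of edgeR needs replicates to estimate a spread, and with 1 library per strain no p-value is given. The call rule was tested on simulated data. These data held counting error only, so the test does not bear on the spread between cultures. Intervals (SciPy 1.17.1) cover counting error only, and without molecular identifiers reads need not be independent molecules. Alternatives were scaling by total counts, lane reads or DESeq2 1.42.0 size factors, no read filter or 100 reads, either read direction alone, thresholds of 5 to 4 and 2-fold, and removal of a lowess trend on ORF length. Coding sequences were aligned globally with Biopython 1.88. Partner genes named are those called or, in a list with 0 called, the 3 farthest from 1, and ZUO1, named with its values already seen. The members and lists were chosen with earlier results of these data known.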

Additional observations from a re-analysis of the deposited data

How the results depend on the processing

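All 10 Hsp70 genes stayed uncalled with each scaling, read filter and read direction, with the length trend removed and at 2-fold. At a ratio of 5 to 4 as threshold 1 was higher, SSA3. Scaling by total counts moved the median log2 ratio of all tested ORFs to -0.10 and gave summed ratios of 0.876 for SSA1 and SSA2, 0.991 for SSB1 and SSB2 and 0.924 for all 10 genes, and scaling by lane reads gave 0.881, 0.997 and 0.929. Over all 6248 tested ORFs, 91 were higher and 515 lower with total counts, against 175 and 341 with TMM. With lane reads 98 were higher and 500 lower, and on rr reads alone 185 of 6108 tested ORFs were higher. With 5 to 4 as threshold, 670 were higher (10.7%) and 902 lower (14.4%), and at 2-fold 20 and 57. Of 23 J-domain genes, 4 were lower with total counts or lane reads, 0 at 2-fold and 6 at 5 to 4. Of the same 23, 1 was higher on rr reads and 2 at 5 to 4. Of 4 other Hsp70 genes 1 was higher at 5 to 4. Of 14 other Hsf1-controlled genes 1 was lower with total counts or lane reads, and 1 was higher and 4 lower at 5 to 4. These lists are small, and their counts were not tested against the shares over all tested ORFs. Beyond what each setting changes by its construction, the cause was not tested. No paired analysis was possible because there was 1 library per strain. For the same reason no library could be left out. Among the 10 Hsp70 genes SSA3 had the fewest reads and the widest interval, 1.15 to 1.47, and some partner genes had fewer reads, such as MDJ2 at 0.430 to 0.854.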
